A study of Mus musculus with 2 samples.

Results

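The 8 genes Bcl11a, Zbtb7a, Sox6, Myb, Nr2c1, Nr2c2, Mbd2 and Kdm1a encode regulators of the switch from embryonic to adult globin, and were chosen by name from what is known of that switch. All 8 were found by gene ID among the 43346 annotated genes of the tables, together with their 42 annotated transcripts, 30 of which are protein-coding. They were measured by RNA sequencing of whole liver from B6NCrl mouse embryos at day 13.5. The series holds 1 group with 2 biological replicates, each with 10 ng of input RNA above 200 nt and added spike-ins. Tissue was pooled over male and female embryos, and the labels tie both replicates to a single donor entry, so the spread over n = 2 may be partly technical. No second age, tissue or treatment was given, so the comparisons below are between genes, between transcripts of a gene and between the replicates, with no test of a condition.

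Red cells of the early embryo carry embryonic globins, and red cells made in the fetal liver of the mouse carry adult globins. DNA-binding repressors sit at the embryonic genes or at their distal enhancers and recruit chromatin enzymes that remove histone acetyl groups, remove methyl groups from histone H3 or read methylated DNA. In this set Bcl11a, Zbtb7a, Sox6 and the receptor pair Nr2c1 and Nr2c2 are the DNA-binding repressors, Mbd2 and Kdm1a belong to the enzyme complexes, and Myb acts in blood progenitors upstream of several of the others. At day 13.5 the liver is the main site where red cells are made.

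The labelled tissue was checked against its markers. All 9 hepatoblast markers and all 8 erythroid markers reached 10 TPM in both libraries, where TPM is a level per unit of transcript length, scaled to the same total in each library. The libraries held 39182457 and 37432977 expected counts on annotated genes in replicates 1 and 2, and spike-ins took 1.16% and 1.88% of all counts. Because the libraries are of whole tissue, fewer cells of a type and less RNA per cell cannot be told apart. By share of TPM, adult genes led among the target genes. Embryonic genes held 2.88% and 2.51% of the summed TPM of the beta-type globins Hbb-y, Hbb-bh1, Hbb-bs and Hbb-bt. Among the alpha-type globins, Hba-x held 0.197% and 0.147%. In level the embryonic genes were not low, with Hbb-y at 3681.74 and 2815.56 TPM and Hbb-bh1 at 391.37 and 327.57 TPM. Hba-x stood at 390.29 and 259.93 TPM, and only 0.0652% of protein-coding genes were higher than Hbb-y. Which red cells gave this RNA was not tested.

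The start regions of the target genes were read for a motif of the best known of these repressors. The human fetal globin promoters carry the letters TGACCA, which the longest BCL11A form binds, at a CCAAT box. The 150 bases before the start of Hbb-y, the main embryonic gene (chr7:103853208-103853357, minus strand), and of Hbb-bs, an adult gene (chr7:103827929-103828078, minus strand), are shown because the first holds both motifs and the second holds CCAAT alone. They are RefSeq sequences on GRCm38.p6, written 5′ to 3′, with TGACCA and CCAAT in capitals.
Hbb-y: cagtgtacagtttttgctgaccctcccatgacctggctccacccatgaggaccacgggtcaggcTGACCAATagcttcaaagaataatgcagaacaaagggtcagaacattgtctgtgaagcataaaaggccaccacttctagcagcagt
Hbb-bs: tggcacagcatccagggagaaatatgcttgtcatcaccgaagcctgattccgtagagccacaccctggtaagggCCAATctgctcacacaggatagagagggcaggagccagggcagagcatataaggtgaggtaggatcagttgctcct
In Hbb-y the motifs overlapped as TGACCAAT, whose first base lay at -86, whereas Hbb-bs had CCAAT at -76 and no TGACCA. Windows of 250 bases before to 50 bases after the start were searched on both strands in 6 of the 7 globin genes, all but Hbb-bh1. TGACCA was found in Hbb-y and, at -40, in the embryonic gene Hba-x, and in none of the windows of Hbb-bs, Hbb-bt, Hba-a1 and Hba-a2. Over all 32851 such windows of the RefSeq table, 13.6% held TGACCA, 37.4% held CCAAT and 1.21% held TGACCAAT. None of the 12 windows of 7 regulators held TGACCA. Binding was not measured here, and a match of letters is a description of the window only.

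The 8 regulators spanned a wide range of levels, and all were detected. Zbtb7a, Bcl11a and Sox6 were the highest, followed by Myb, Mbd2 and Kdm1a at 10 to 20 TPM, and the paired receptors Nr2c2 and Nr2c1 were the lowest. The median of the 8 was 12.5 TPM in replicate 1 and 14.5 TPM in replicate 2, or 13.5 ± 1.36 TPM (SD, n = 2). Of the 8 regulators, 6 reached 10 TPM in both libraries, against 27.9% of 21474 annotated protein-coding genes and 53.5% of the 11194 protein-coding genes that reached 1 TPM in both. All 8 reached 1 TPM in both libraries, against 52.1% of the protein-coding genes. In the order of mean levels, the ranges of the replicates overlapped for 1 pair of neighbours, Mbd2 and Kdm1a. With 2 values per gene, such a gap describes these libraries and is not a test.

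**Figure D1:**
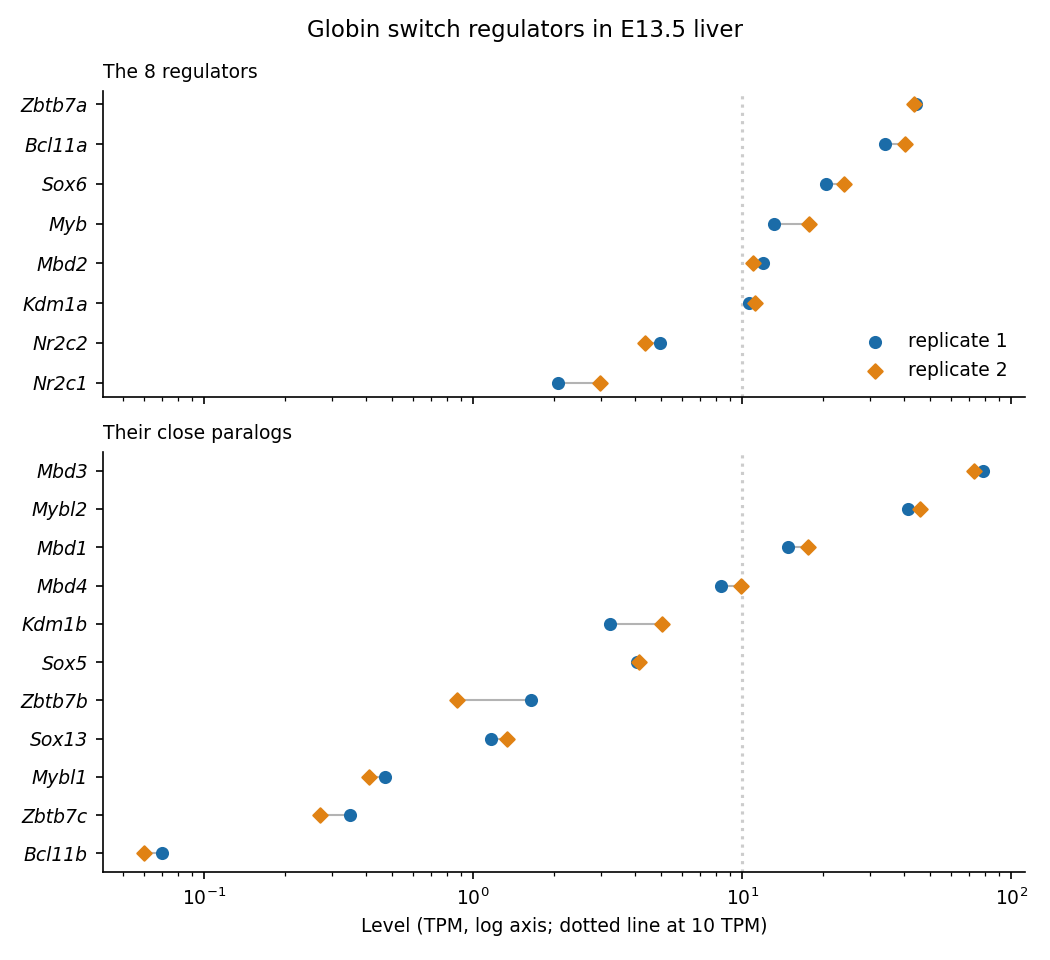
Level of each regulator (upper panel) and of 10 close paralogs and Mbd3 (lower panel) in TPM on a log axis, 1 circle for replicate 1 and 1 diamond for replicate 2. Zbtb7a and Bcl11a lie between 33.97 and 44.26 TPM, Nr2c1 and Nr2c2 below 5 TPM, and Bcl11b lies below 0.1 TPM in both libraries.

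Zbtb7a encodes a zinc-finger repressor with a POZ domain, also called LRF, which binds the human fetal globin promoters at a site apart from that of BCL11A. The gene (ENSMUSG00000035011.11, chromosome 10, 81135220 to 81152995 of GRCm38) was the highest of the 8, with 44.26 TPM in replicate 1 and 43.63 TPM in replicate 2. Only 11.1% of protein-coding genes were higher. Of its 6 annotated transcripts, Zbtb7a-203 stood at 29.58 and 28.39 TPM and Zbtb7a-201 at 12.76 and 13.21 TPM. Both, with the minor Zbtb7a-202, encode the same 569 codons, and the 3 together held 98.7% ± 0.743 of the TPM (SD, n = 2). In the last exon Zbtb7a-201 runs 3779 nt further than Zbtb7a-203. Their full lengths are 5938 and 1841 nt, so they differ outside that stretch too, and reads there also bear on their split. The difference in full length turned the order of the transcripts round between units: Zbtb7a-203 held 66.0% ± 1.24 of the TPM, but Zbtb7a-201 held 58.6% ± 1.11 of the expected counts.

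Bcl11a encodes the zinc-finger repressor whose role was found through genetic variation in human fetal hemoglobin and that silences Hbb-y and Hbb-bh1 in mice. The gene (ENSMUSG00000000861.11, chromosome 11, 24078056 to 24174123) stood at 33.97 and 40.15 TPM, and 12.8% of protein-coding genes were higher. Within a library the log2 ratio of Zbtb7a over Bcl11a was 0.38 in replicate 1 and 0.12 in replicate 2, or 0.25 ± 0.19 (SD, n = 2), so both direct repressors were near each other in gene-level TPM.

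That gene-level value combined transcripts with unlike products. The long forms were Bcl11a-202, which encodes the longest protein of 835 codons (XL), and Bcl11a-201, which encodes 773 codons (L). XL stood at 6.44 and 7.58 TPM and L at 3.71 and 5.82 TPM. XL carries the last group of zinc fingers, which contacts TGACCA, and L has the same coding part up to the splice site that removes it. The short forms, which end soon after the point where the long forms continue, were Bcl11a-203 with 243 codons at 2.77 and 3.96 TPM and Bcl11a-204 with 191 codons at 17.83 and 19.74 TPM. Bcl11a-204 starts from another first exon, 2614 nt downstream of the start of Bcl11a-201. The fifth named transcript, Bcl11a-205, is annotated as a retained intron and stood at 3.15 and 2.97 TPM.

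The split of Bcl11a between long and short forms depended on the unit. By TPM, XL and L together held 31.6% ± 2.47 and the 2 short forms held 59.8% ± 1.14 (SD, n = 2). By expected counts, which grow with transcript length, XL and L held 51.6% ± 2.67 and the short forms held 31.7% ± 0.094. Summed over XL and L, the level was 10.2 and 13.4 TPM, against 43.47 and 43.30 TPM for the 3 Zbtb7a transcripts of full coding length. The deposited posterior interval of Bcl11a-204 ran from 15.71 to 19.46 TPM in replicate 1 and from 16.93 to 21.59 TPM in replicate 2, above the upper bound of XL, which was 6.75 and 7.94 TPM. These shares are estimates of a model that divides reads over overlapping transcripts, and a read inside a shared exon does not tell them apart. The exon junctions that separate XL, L and the short forms are shown next, as GENCODE transcript sequences on GRCm38, plus strand, 30 bases to each side, with the bases after the point of divergence in capitals.
Bcl11a-202 (XL): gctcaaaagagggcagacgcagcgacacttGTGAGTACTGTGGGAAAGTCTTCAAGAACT
Bcl11a-201 (L): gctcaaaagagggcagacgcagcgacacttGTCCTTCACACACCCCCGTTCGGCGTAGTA
Bcl11a-203 (S): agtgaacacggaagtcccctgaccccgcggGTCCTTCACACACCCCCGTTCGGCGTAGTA
XL reads on through the exon from chr11:24164889-24164918, while L and S join the same last exon at chr11:24172699-24172728, L after base 24164888 and S after base 24163288. Bcl11a-204 has the same last junction as S, and those 2 differ in the first exon and in the end of the last exon. That exon ends at base 24173558 in Bcl11a-204 and at base 24174123 in S, so reads in this 3′ stretch bear on their split too. Reads over these junctions are not counted in the deposited tables, so the junctions show what separates the forms and add no values.

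**Figure D2:**
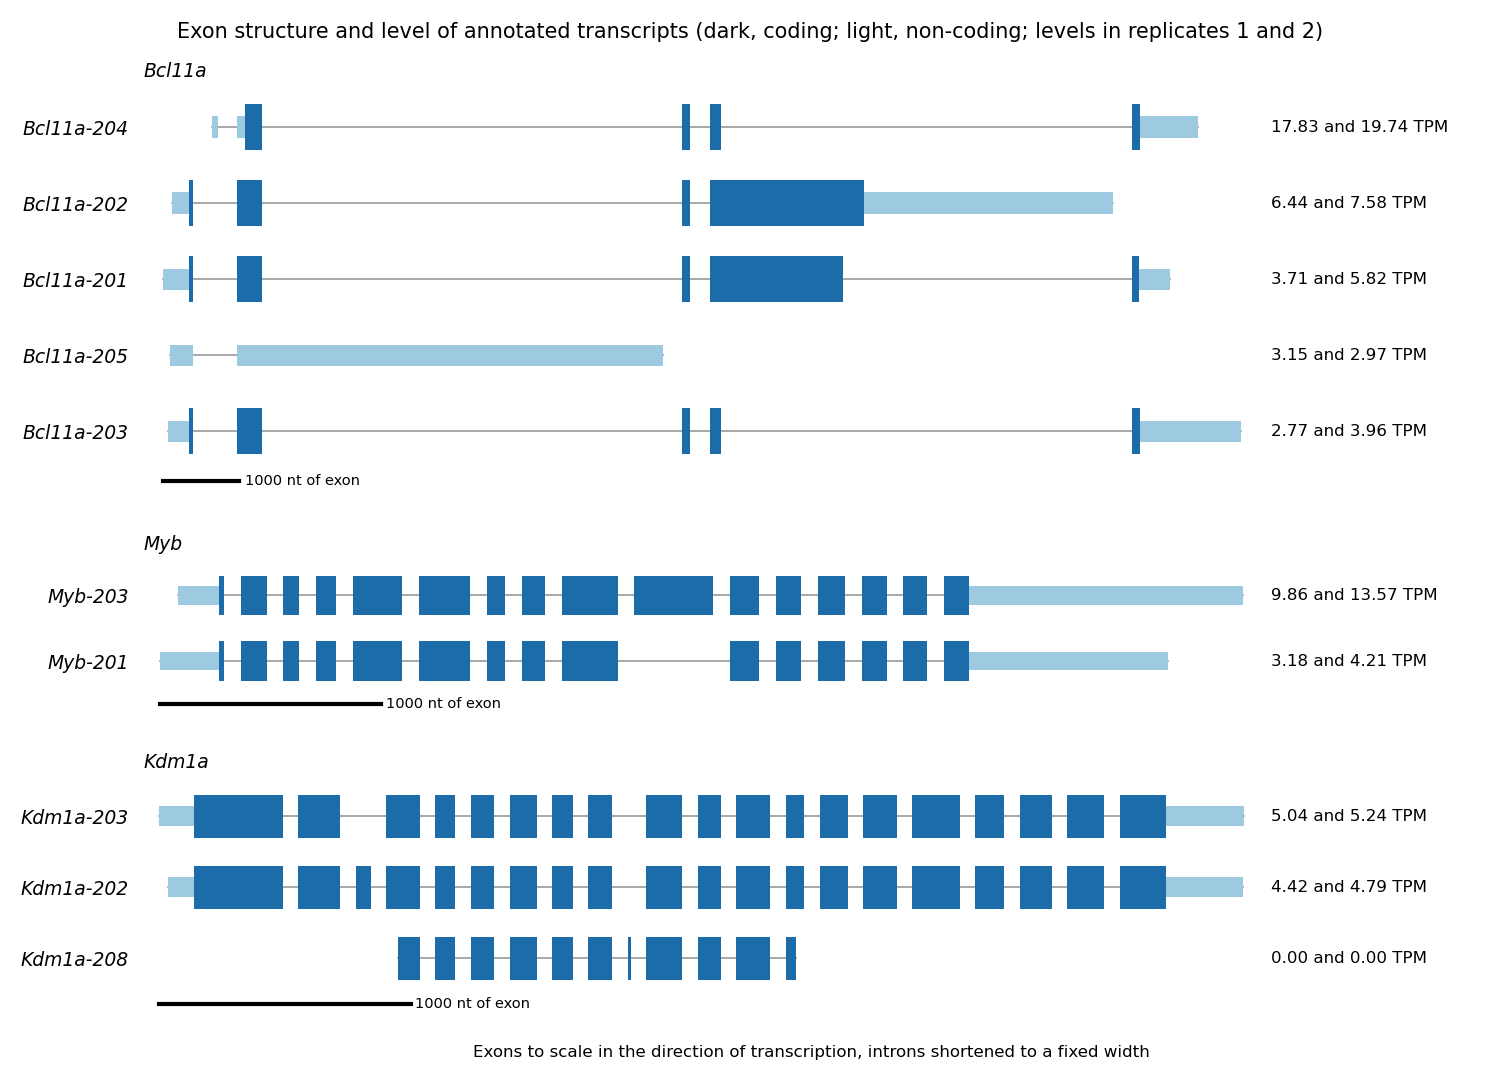
Annotated exon structure of the main transcripts of Bcl11a, Myb and Kdm1a, with exons to scale, coding parts dark and tall, non-coding parts light, and introns shortened to a fixed width. The levels in replicates 1 and 2 stand at the right. Bcl11a-204, at 17.83 and 19.74 TPM, has only the start of the long exon of Bcl11a-202, at 6.44 and 7.58 TPM. That exon makes up most of the coding part of Bcl11a-202.

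Bcl11a is also known from B cells, plasmacytoid dendritic cells and neurons, so markers of these cells were read beside it. Of 7 B lymphoid markers, 6 were below 1 TPM in both libraries, and their sum was 5.24 TPM in each, mostly from Cd79b, part of the B cell receptor, at 3.32 and 3.96 TPM. Ms4a1 was listed at 0 in replicate 1 and Pax5 at 0 in replicate 2. The 5 plasmacytoid dendritic markers summed to 40.8 and 45.7 TPM, of which Bst2, an interferon-induced surface protein found on many cells, gave 31.33 and 33.30 TPM and the transcription factor Tcf4, which many tissues express, gave 8.86 and 11.62 TPM. The other 3 were below 1 TPM in both libraries, among them the receptor Siglech at 0.23 and 0.22 TPM. The 6 neuron markers summed to 8.12 and 5.46 TPM. None of the 3 lists held a marker at 0 in both libraries. The part of these cells in the Bcl11a level was not tested.

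Sox6 encodes an HMG-box factor that bends DNA, binds the Hbb-y promoter, and is known to act with Bcl11a. The gene (ENSMUSG00000051910.9, chromosome 7, 115470872 to 116038796) stood at 20.49 and 23.99 TPM, and 18.6% of protein-coding genes were higher. Its level lay below that of Bcl11a and above that of Myb in both libraries. Sox6-203 held 69.1% ± 0.106 of the TPM with 14.15 and 16.61 TPM, and Sox6-204 stood at 6.30 and 7.14 TPM. Sox6-204 runs 5314 nt further at its 3′ end and took 55.6% ± 1.2 of the expected counts, so the leading transcript again differed between units. The 2 also differ in the coding sequence, with 827 codons against 787. Sox6-203 has an exon of 123 nt that Sox6-204 lacks. That exon does not by itself account for the coding lengths of 2481 and 2361 nt, so they differ elsewhere too. The 123-nt exon (chr7:115579016-115579138, minus strand, GRCm38) is shown in capitals between its neighbours in Sox6-203, because it is a stretch that separates the main products.
Sox6-203: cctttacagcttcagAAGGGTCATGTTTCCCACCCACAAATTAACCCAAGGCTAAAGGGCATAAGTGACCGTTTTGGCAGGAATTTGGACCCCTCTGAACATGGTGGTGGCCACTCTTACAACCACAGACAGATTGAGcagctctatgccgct
Transcripts with the exon gave 14.15 and 16.61 TPM, against 6.34 and 7.39 TPM for those without it. Reads from the long 3′ end of Sox6-204 bear on the same split, so the values are not a measure of the exon alone. Sox6 is known from cartilage and striated muscle as well. The 5 cartilage markers summed to 1.34 and 1.96 TPM, mostly from Sox9, a factor that other tissues express too, at 0.95 and 1.38 TPM. Col9a1 stood at 0.11 and 0.31 TPM, and Acan, the main proteoglycan of cartilage, at 0.01 TPM in replicate 1 and listed at 0 in replicate 2. The 7 markers of striated muscle and heart summed to 89.7 and 130 TPM. On the scaled counts described below, 4 of them were at least 1.2-fold higher and 2 at least 1.2-fold lower in replicate 2. The largest rises were those of Myh7, at 0.54 and 3.36 TPM, and Tnnt2, at 3.82 and 17.21 TPM, and the largest fall was that of Acta1, at 15.38 and 9.21 TPM. Actc1, a heart and fetal muscle actin, stood at 22.97 and 53.68 TPM, and Mylpf, a skeletal muscle myosin light chain, at 36.60 and 31.90 TPM. The part of cartilage and muscle in the Sox6 level was not tested.

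Myb encodes a DNA-binding activator that keeps blood progenitors dividing. In humans, lower MYB levels go with more fetal globin. The gene (ENSMUSG00000019982.10, chromosome 10, 21124935 to 21160984) stood at 13.12 and 17.78 TPM, and 23.3% of protein-coding genes were higher. Myb-203 led by both units, with 75.7% ± 0.827 of the TPM and 79.5% ± 0.661 of the counts. It stood at 9.86 and 13.57 TPM, and Myb-201 at 3.18 and 4.21 TPM. Myb-203 encodes 755 codons and Myb-201 encodes 636, a difference set by 1 added exon of 357 nt that gives the larger of the known c-Myb proteins. The junctions that enter or skip this exon are shown in the direction of the gene (minus strand, GRCm38), 30 bases to each side, with the bases after the junction in capitals.
Myb-203: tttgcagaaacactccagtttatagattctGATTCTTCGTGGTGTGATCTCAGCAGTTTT
Myb-201: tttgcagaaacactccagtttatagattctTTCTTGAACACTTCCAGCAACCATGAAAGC
Myb-203 is also annotated 341 nt further at its 3′ end, so reads in either stretch bear on its share. The lengths of Myb-201, Myb-203 and Sox6-205 differ between the annotation the authors used and the later release drawn on here for exons. The 6 markers of blood stem and progenitor cells, the cells known for high Myb, summed to 39.9 TPM in replicate 1 and 49.99 TPM in replicate 2, on a scale where the typical gene was also higher in replicate 2. Kit, the receptor that marks many of them, stood at 10.72 and 14.33 TPM, and Flt3, a receptor of early progenitors, at 1.57 and 1.43 TPM. The part of progenitor number in the Myb level was not tested.

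Nr2c1 and Nr2c2 encode TR2 and TR4, orphan nuclear receptors that pair with each other on direct repeats in the embryonic globin promoters. Nr2c2 (ENSMUSG00000005893.10, chromosome 6, 92091390 to 92174294) stood at 4.96 and 4.36 TPM. Nr2c1 (ENSMUSG00000005897.10, chromosome 10, 94148023 to 94197211) stood at 2.07 and 2.95 TPM. Nr2c2 was higher in each library, with a log2 ratio of Nr2c2 over Nr2c1 of 1.26 in replicate 1 and 0.56 in replicate 2, or 0.91 ± 0.49 (SD, n = 2). The size of the gap was thus poorly fixed, while both receptors lay below the other 6 regulators in both libraries. Of protein-coding genes, 38.4% were higher than Nr2c2 and 45.0% were higher than Nr2c1.

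By TPM, the order of the receptors did not hold in both libraries over transcripts that encode a whole receptor. Nr2c2-201 with 596 codons stood at 2.22 and 1.95 TPM, and with Nr2c2-202 it made 2.56 and 2.21 TPM, or 51.2% ± 0.728 of the gene. The rest lay mostly in Nr2c2-203, whose annotated coding part covers 4 codons, at 1.2 and 1.46 TPM, and in Nr2c2-205, annotated as a target of nonsense-mediated decay, at 1.09 and 0.56 TPM. By expected counts Nr2c2-201 alone held 78.9% ± 2.23. All 3 Nr2c1 transcripts encode the same 590 codons, and they are led by Nr2c1-203 at 1.13 and 1.70 TPM and Nr2c1-201 at 0.86 and 1.19 TPM. Set side by side, whole-receptor transcripts thus stood at 2.56 and 2.21 TPM for Nr2c2 and at 2.07 and 2.95 TPM for Nr2c1. Nr2c2 was higher in replicate 1 and Nr2c1 in replicate 2. In replicate 1 the posterior interval of Nr2c2-201 alone, 1.93 to 2.45 TPM, overlapped that of Nr2c1, 1.77 to 2.37 TPM, so the order there was not fixed. By expected counts, which grow with transcript length, whole-receptor Nr2c2 was higher in both libraries, with 665.45 and 520.22 against 237 and 307. Nr2c2 was also the only one of the 8 whose gene count carried a posterior SD above 1, at 9.71 and 10.3 counts on 822.5 and 621.5, an error that the authors' model gives where reads fit more than 1 gene.

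Kdm1a encodes LSD1, which removes methyl groups from lysine 4 of histone H3 and works in CoREST complexes. The gene (ENSMUSG00000036940.11, chromosome 4, 136550540 to 136602723) stood at 10.61 and 11.12 TPM, and 27.8% of protein-coding genes were higher, against 27.2% for Mbd2. A pair of transcripts shared most of its signal. Kdm1a-203 with 853 codons stood at 5.04 and 5.24 TPM, and Kdm1a-202 with 873 codons at 4.42 and 4.79 TPM. Their posterior intervals overlapped in both libraries, at 3.15 to 6.21 against 3.05 to 6.07 TPM in replicate 1, so neither could be called the higher. They differ in a 60-nt exon (chr4:136582040-136582099, minus strand, GRCm38). A further transcript, Kdm1a-208, carries a 12-nt exon (chr4:136563438-136563449), the microexon that is known to be included in neurons. Both exons are shown in capitals between the ends of their neighbours, because they mark the products of Kdm1a.
Kdm1a-202: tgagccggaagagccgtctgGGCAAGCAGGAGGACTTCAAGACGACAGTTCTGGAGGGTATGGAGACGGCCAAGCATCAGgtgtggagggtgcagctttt
Kdm1a-208: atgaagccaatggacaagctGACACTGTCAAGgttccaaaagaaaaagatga
Kdm1a-208 had 0 counts in both libraries. Its model is a fragment of 965 nt, all annotated as coding, against 3028 nt for Kdm1a-202. The 0 holds for that model and is not a measure of the microexon in longer transcripts. Because counts grow with transcript length, a share of counts is also low for so short a model. The limit of 3 counts that a count of 0 allows corresponds to 0.277% of the counts of the gene in replicate 1 and 0.292% in replicate 2, for counting error only. The deposited posterior interval, which also covers reads that could be given to other transcripts, was wider and reached 0.195 and 0.314 TPM, against 10.61 and 11.12 TPM for the gene.

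Mbd2 encodes a protein that binds methylated CpG and brings the NuRD deacetylase and remodelling complex. The gene (ENSMUSG00000024513.12, chromosome 18, 70568189 to 70626131) stood at 11.92 and 10.93 TPM. Mbd2-201, with 414 codons, stood at 7.51 and 7.84 TPM, and the retained-intron transcript Mbd2-204 of 494 nt at 4.14 and 2.74 TPM. The gene-level TPM was lower in replicate 2 although that of Mbd2-201 was not. The posterior intervals of Mbd2-204 overlapped, at 2.37 to 5.91 TPM in replicate 1 and 0.90 to 4.49 TPM in replicate 2. By expected counts Mbd2-201 was lower in replicate 2 as well, at 527.1 and 494.4. Mbd2-201 held 67.4% ± 6.22 of the TPM and 90.01% ± 2.43 of the counts. Its paralog Mbd3, which takes the place of Mbd2 in other NuRD complexes, was much higher, with 78.64 and 72.66 TPM. The log2 ratio of Mbd2 over Mbd3 was -2.72 and -2.73 in replicates 1 and 2, or -2.73 ± 0.01 (SD, n = 2), the least variable between the replicates together with that of Kdm1a over Rcor1 among the 9 ratios computed.

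Across the 8 genes, the leading transcript by TPM was the same in both libraries in all 8, and by TPM and by counts it was the same in 5, the exceptions being Bcl11a, Zbtb7a and Sox6. The leading transcript held over 50% of the TPM in both libraries in 5 of 8 genes, against 74.4% of 8278 protein-coding genes with several transcripts and at least 1 TPM in both libraries. The 3 below were Bcl11a, Nr2c2 and Kdm1a. Zbtb7a, Sox6 and Nr2c1 have no annotated transcript of another type. Among the other 5, transcripts annotated as protein-coding held the smallest share of the TPM in Mbd2, with 67.8% ± 5.996 (SD, n = 2). By expected counts the smallest share was that of Bcl11a, with 83.3% ± 2.58, against 90.4% ± 2.19 in Mbd2.

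**Figure D3:**
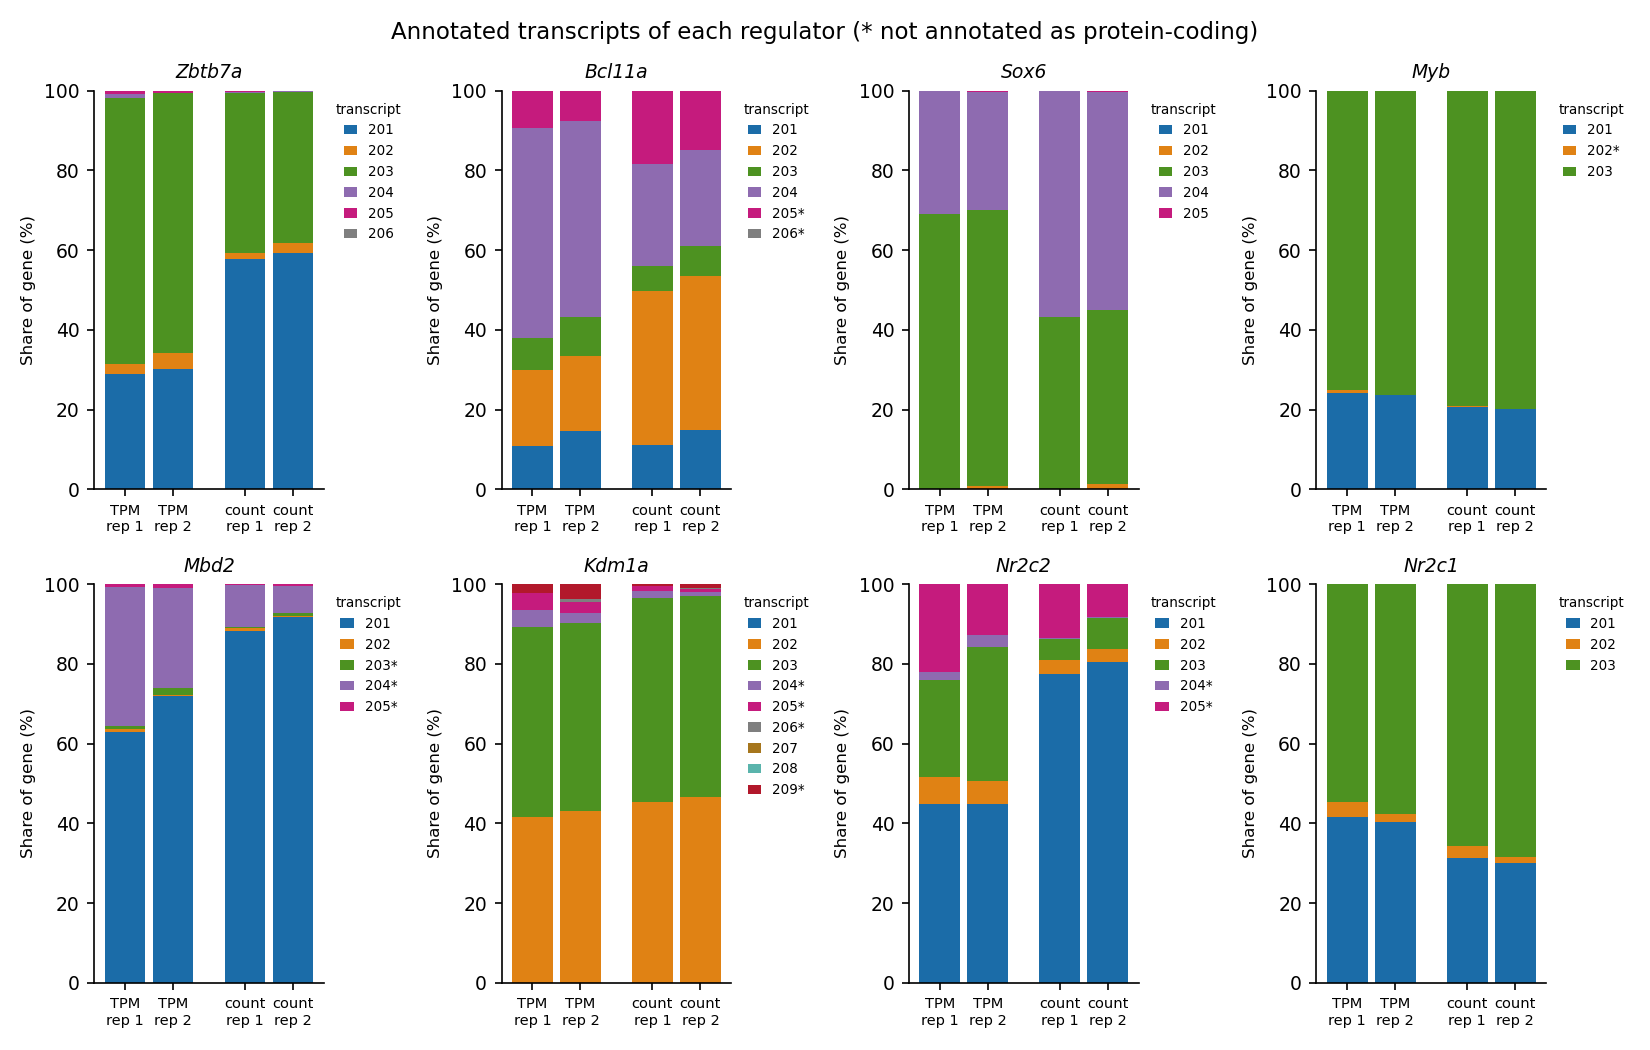
Share of each annotated transcript in its gene, in percent, with 1 bar per replicate by TPM and 1 per replicate by expected counts, and the transcript number of the gene in the legend. Replicates resemble each other within a unit, whereas in Bcl11a, Zbtb7a and Sox6 another transcript leads by counts than by TPM.

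The paralogs of the regulators were mostly lower than the regulators themselves. Of the 11 listed paralogs, 2 reached 10 TPM in both libraries, namely Mybl2 and Mbd1, and 3 stayed under 1 TPM throughout. The list median was 3.68 ± 0.636 TPM (SD, n = 2). Bcl11b, a T cell factor, stood at 0.07 and 0.06 TPM, so that the log2 ratio of Bcl11a over Bcl11b was 8.92 and 9.39. Zbtb7b stood at 1.64 and 0.87 TPM and Zbtb7c at 0.35 and 0.27 TPM, far below Zbtb7a. Sox5, which often acts with Sox6, stood at 4.07 and 4.13 TPM, and Sox13 at 1.17 and 1.34 TPM. Myb went the other way, at 13.12 and 17.78 TPM against 41.47 and 45.99 TPM for Mybl2, a cell cycle factor of dividing cells, while Mybl1 stood at 0.47 and 0.41 TPM. Kdm1a exceeded Kdm1b, at 3.23 and 5.02 TPM, by a log2 ratio of 1.72 and 1.15. Mbd2, at 11.92 and 10.93 TPM, lay above Mbd4 at 8.33 and 9.88 TPM and below Mbd1 at 14.75 and 17.50 TPM. It also lay below Mbd3, at 78.64 and 72.66 TPM, a paralog that is listed with the NuRD subunits and not among the 11.

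The complexes through which the repressors work were present at uneven levels. All 13 listed NuRD subunits other than Mbd2 reached 1 TPM in both libraries and 10 reached 10 TPM. Their median was 42.8 ± 3.62 TPM (SD, n = 2). The histone-binding subunits Rbbp4, with 258.97 and 302.30 TPM, and Rbbp7, with 237.61 and 266.14 TPM, were the highest. Within subunit families the levels were unequal, since the remodeller Chd4 stood at 27.62 and 26.65 TPM and its paralog Chd3 at 2.34 and 3.89 TPM. Likewise Gatad2a stood at 19.33 and 19.19 TPM and Gatad2b, the lowest of the list, at 3.11 and 2.88 TPM. Mbd2, at 11.92 and 10.93 TPM, lay below the list median in both libraries.

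Of the 10 listed CoREST partners of Kdm1a, 4 reached 10 TPM in both libraries, and the list median was 9.40 ± 0.902 TPM. They were the deacetylases Hdac1 and Hdac2, the HMG protein Hmg20b and the erythroid repressor Gfi1b, which stood at 89.35 and 99.05 TPM and brings Kdm1a to DNA. Rcor1, the scaffold that links Kdm1a to the deacetylases, stood at 5.18 and 5.47 TPM, and the log2 ratio of Kdm1a over Rcor1 was 1.03 and 1.02 in replicates 1 and 2. Rcor3 stood at 8.05 and 8.49 TPM and Rcor2, the lowest of the list, at 1.19 and 1.60 TPM. Of the 6 co-repressors described with Nr2c1 and Nr2c2, 5 reached 10 TPM in both libraries, and the list median was 46.1 ± 3.91 TPM. Trim28 at 93.48 and 83.42 TPM and the DNA methyltransferase Dnmt1 at 47.45 and 57.84 TPM were thus well above the receptors at 2 to 5 TPM, and Rcor1 was the lowest.

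**Figure D4:**
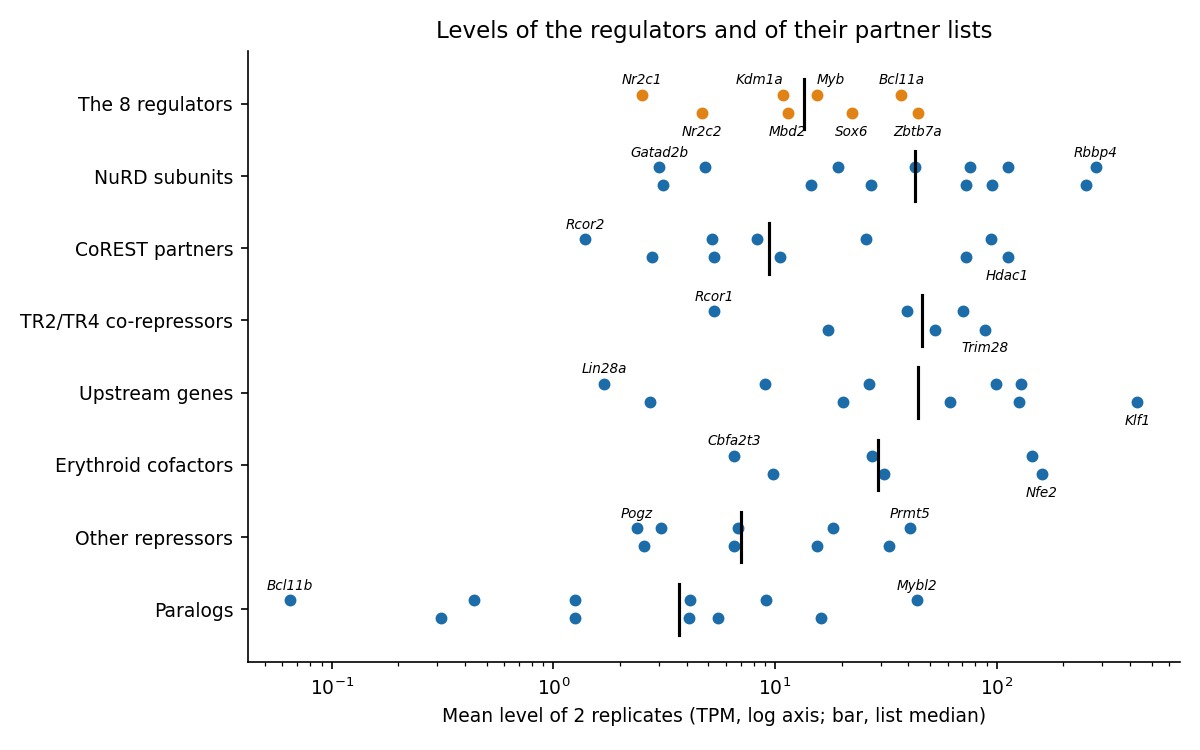
Mean level over the 2 replicates of each regulator and of each gene of 7 related lists, in TPM on a log axis, with a bar at the list median. The highest and lowest gene of each list are named, and Klf1 at 431 TPM and Bcl11b at 0.065 TPM mark the ends.

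Genes that act upstream of the regulators included the highest gene of the 8 lists plotted. Klf1, which activates Bcl11a and Zbtb7a, stood at 443.43 and 418.82 TPM, and Gata1 at 121.26 and 129.93 TPM. Of the 10 upstream genes, 7 reached 10 TPM in both libraries. The 3 that did not were Hic2, which represses Bcl11a in human cells, at 2.57 and 2.90 TPM, and the RNA-binding proteins Lin28a at 1.63 and 1.75 TPM and Lin28b at 8.12 and 9.99 TPM. Lin28b is known to lower BCL11A protein in human fetal cells. Hbs1l, the neighbour of Myb across an enhancer region linked to human fetal hemoglobin, stood at 56.09 and 67.43 TPM. Zfp410, which sustains NuRD by activating Chd4, stood at 24.57 and 28.25 TPM.

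Of 6 erythroid cofactors at the globin genes, 4 reached 10 TPM in both libraries, from Nfe2 at 153.32 and 165.55 TPM to Cbfa2t3 at 6.29 and 6.77 TPM. Of 9 other genes described as repressing embryonic or fetal globin, 4 did so, and the list median was 7.03 ± 1.34 TPM. Prmt5, an arginine methyltransferase, was the highest at 37.43 and 43.72 TPM and Pogz the lowest at 2.15 and 2.62 TPM. Ikzf1, a lymphoid and erythroid zinc-finger factor, stood at 25.48 and 39.94 TPM. Nfix, at 3.09 and 2.04 TPM, and Nfia, at 2.70 and 3.44 TPM, which are known repressors of fetal globin in human cells, were near the receptors in level.

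Between the replicates, 3 of the 8 regulators differed by at least 1.2-fold, against 27.8% of the 15997 genes whose mean count reached 10. Expected counts were scaled by TMM, which sets the typical gene at a log2 ratio of 0, whereas the same genes had a median log2 ratio of TPM of 0.15. Myb, with 1697 counts in replicate 1 and 2073 in replicate 2, had a log2 ratio of replicate 2 over replicate 1 of 0.29 (95% counting interval 0.19 to 0.38). Nr2c1, with 237 and 307 counts, had 0.37 (0.12 to 0.62), and Nr2c2, with 822.5 and 621.5 counts, had -0.40 (-0.56 to -0.25). The 2 receptors thus differed in opposite directions on this scale. Of all genes, 13.0% were at least 1.2-fold higher and 14.8% at least 1.2-fold lower in replicate 2.

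The other 5 regulators stayed within 1.2-fold, with log2 ratios between -0.15 for Mbd2 and 0.08 for Bcl11a. For Mbd2, Kdm1a and Sox6 the counting interval held 0. The interval of Zbtb7a, with 4884 and 4419 counts, ran from -0.20 to -0.09, and that of Bcl11a, with 3727 and 3935 counts, from 0.01 to 0.14. The median absolute log2 ratio of the 8 was 0.15, against 0.15 over all genes. The intervals are built from counting error alone, and no molecular identifiers were available to tell PCR copies apart. The replicates differed by more than such error, with a chi-square statistic of 23.1 per degree of freedom. An interval that leaves out 0 is therefore not a test of a difference. Scaled to spike-in totals, which moves every log2 ratio by -0.64, all 8 regulators were lower in replicate 2, Myb by -0.35 and Nr2c1 by -0.26 included, so the direction for Myb, Nr2c1, Bcl11a and Sox6 holds only relative to the typical gene.

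**Figure D5:**
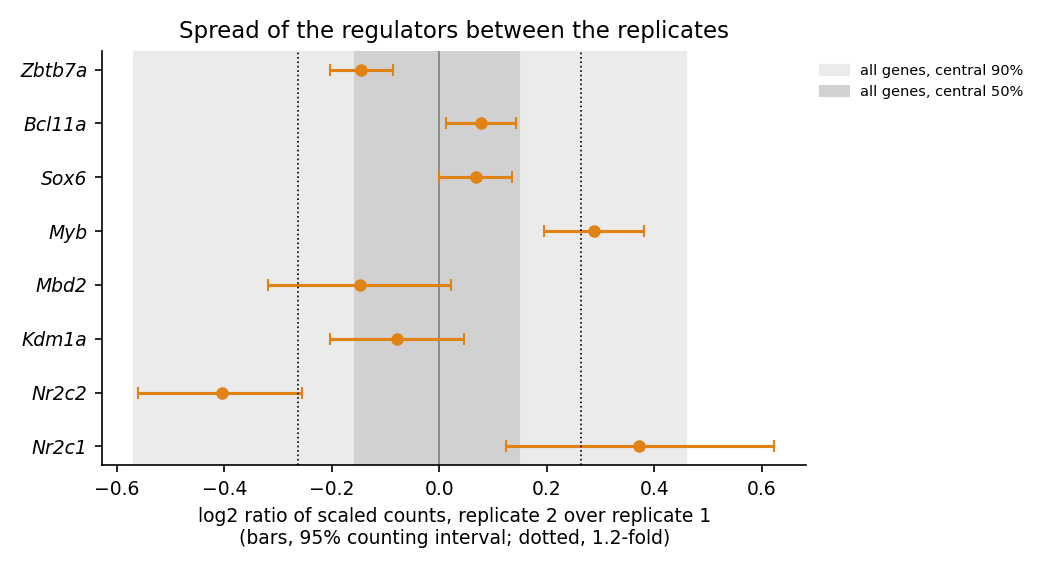
log2 ratio of scaled counts of each regulator, replicate 2 over replicate 1, with 95% counting intervals as bars, dotted lines at 1.2-fold and grey bands for the central 50% and 90% of all genes. Myb at 0.29, Nr2c1 at 0.37 and Nr2c2 at -0.40 lie outside the dotted lines and inside the wider band.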

How the data were processed

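For each of the 2 libraries, 1 gene table and 1 transcript table were used. They rest on mm10 and GENCODE release M4, per the deposited readme. Neither the quantification tool nor strand use in counting was found in the sources used here. The deposited expected counts are the authors' estimates of reads per gene, whose model divides reads that fit several features, and they come with posterior SDs and intervals. TPM was normalised by the authors over all features, spike-ins and transfer RNA entries included. FPKM and the percent of a gene in each transcript are further deposited columns, used as alternatives only.

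Symbols, coordinates, exons and transcript sequences were taken by ID from GENCODE release M21, on GRCm38 (mm10), which gave a symbol to 42462 of 43346 annotated genes, and promoter windows from RefSeq. The 8 genes and the lists were chosen with earlier results of these data known. Named were all 8 regulators, their paralogs, the highest and lowest gene of each list, and transcripts with at least 10% of a gene's TPM or counts in either library. No gene was named for a pattern like that of a regulator, since 2 libraries give no pattern. Of the 11 listed paralogs, 1 is not reported here. Further list genes and minor transcripts were named for their role after their values were seen.

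Shares were computed from TPM and from expected counts. Ratios between replicates used log2(count + 0.5), scaled with TMM, in genes whose mean count reached 10, and have exact 95% binomial intervals. The ratio step was tested on simulated counts. The replicates were not 1 library counted again, with a chi-square statistic of 23.1 per degree of freedom. Depth was 39182457 and 37432977 counts, so a gene with few counts has a wide interval. Alternatives covered posterior means, FPKM, the TPM denominator, pseudocounts, filters, DESeq2 size factors, spike-in totals and each replicate alone. R 4.3.3 with edgeR 4.0.16 and DESeq2 1.42.0, and Python 3.11.15 (matplotlib 3.10.9, scipy 1.17.1, pandas 2.3.3, numpy 2.4.6) were used.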

Additional observations from a re-analysis of the deposited data

How the results depend on the processing

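Of the summary values set against alternatives, 7 moved and 34 stayed within the limits set for a change, which are 1 SD for a level or ratio and 1.5 times for a count. Those 34 include 4 regulators at the level threshold by FPKM and 7 genes with a leading transcript over 50% by expected counts. The median TPM of the 8 regulators became 20.6 with globins left out of the TPM total and 22.2 over the regulators with a mean count of at least 1000. The number at the level threshold became 3 at 20 TPM. The number past the fold between replicates became 8 with spike-in totals, 5 at 1.1-fold and 0 at 1.5-fold. Spike-in totals turned all 4 positive ratios negative, those of Myb (-0.35), Nr2c1 (-0.26), Bcl11a (-0.56) and Sox6 (-0.57), by the construction of that scaling, which lowers every ratio. The ratio of Kdm1a, whose counting interval held 0, was 0.07 by TPM. With protein-coding transcripts only, the leading transcript held over 50% in 8 genes. With each replicate left out in turn, the median ran from 12.5 to 14.5 TPM, the number at 10 TPM was 6 each time, the log2 ratio of Zbtb7a over Bcl11a ran from 0.12 to 0.38 and that of Nr2c2 over Nr2c1 from 0.56 to 1.26, and the number of genes led by a transcript with over 50% ran from 5 to 6. Of the values of single genes and transcripts, 86 stayed within those limits (the counting interval for a ratio between replicates), and the others moved or turned sign. No paired analysis was possible because the series holds 1 group. Depth limits Nr2c1 most, with 237 and 307 counts.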
